A study of Homo sapiens with 4 samples.

Results

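The genes described here are 54 nuclear genes of oxidative phosphorylation. They encode 50 subunits of the 5 complexes of the inner mitochondrial membrane (17 of complex I, 4 of complex II, 6 of complex III, 8 of complex IV and 15 of the ATP synthase), together with cytochrome c (CYCS), the ATP synthase assembly factors ATPAF1 and ATPAF2 and the ATP synthase inhibitor ATPIF1. They were chosen by name, from a fixed list of GRCh37 symbols, out of 63677 genes in the count files, and all 54 were found and tested. ATP5 symbols are given as in GRCh37, so that ATP5A1 is now ATP5F1A, ATP5F1 is now ATP5PB and ATPIF1 is now ATP5IF1. RNA was measured by poly(A)-selected RNA-seq in IMR90, a line of normal human fetal lung fibroblasts that is not immortalized. There were 2 libraries of cells transfected with a non-targeting siRNA (control) and 2 of cells transfected with siRNA against HMGB1, an abundant chromatin protein, each harvested after 72 h. In both groups replicate 1 was isolate I90-10 and replicate 2 was isolate I90-79, each at passage 5 when obtained. All the cells thus received an siRNA and a transfection reagent, and the study used 2 different siRNAs against HMGB1 without the labels saying which one went into which library.

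Oxidative phosphorylation passes electrons from NADH through complex I, and from succinate through complex II, to ubiquinone, on to complex III, and by cytochrome c to complex IV, which reduces oxygen. The protons pumped on the way return through the ATP synthase, whose rotating ring of c subunits drives catalysis in the F1 head. Most subunits are encoded in the nucleus, but the core of complexes I, III and IV and part of the ATP synthase is encoded in mitochondrial DNA, so nuclear and mitochondrial subunits must be joined by dedicated assembly factors. ATPAF1 is such a factor, a chaperone that binds the catalytic beta subunit before it enters F1, and ATPAF2 does the same for the alpha subunit. The question asked of the counts is whether a fall of ATPAF1 came with a fall of the subunits.

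HMGB1 itself was counted at 181 and 237 CPM (counts scaled to a common library size) in control libraries and at 15.96 and 18.9 CPM in knockdown libraries, so both knockdown libraries matched their labels. The libraries held between 29861687 and 35317010 counts. The 9 fibroblast markers ranged from 64.9 CPM (PDGFRB) to 12560 CPM (COL1A1), while all 5 epithelial and all 5 leukocyte markers stayed below 1 CPM in every library. Of the endothelial markers, CDH5 was at 0, VWF at 0.923 to 4.16 CPM and TEK at 131 to 149 CPM. The 54 genes took 0.610% and 0.655% of the counts in control and 0.703% and 0.688% in knockdown libraries. In bulk RNA, fewer cells of a kind and less RNA per cell cannot be told apart. The 13 mitochondria-encoded subunits have 0 counts in all 4 files, as do all 37 genes of the mitochondrial chromosome, so the nuclear subunits could not be set against their mitochondrial partners.

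In the fit without the isolate as a replicate block, ATPAF1 was the 1 gene of the 54 that passed the threshold upon HMGB1 knockdown. The threshold was an adjusted p under 0.01 with a log2-fold change beyond 0.6 in either direction. In that fit none of the 50 subunits in the list joined it. With the isolate as a block, 1 subunit, SDHC, was called down (log2-fold change −0.85, adjusted p = 0.00055) and 2 subunits were called up. The ATPAF1 gene (ENSG00000123472) spans 47098409 to 47139539 of chromosome 1, minus strand, in hg19. Its expression was 58.0 and 49.1 CPM in the control libraries of I90-10 and I90-79, and 6.65 and 8.45 CPM in their knockdown libraries. Both knockdown values, which rest on 192 and 264 reads, lay far below both control values. The means were 53.6 ± 6.24 CPM (SD, n = 2) and 7.55 ± 1.28 CPM (SD, n = 2), a 7.08-fold decrease. By edgeR's quasi-likelihood test this was −2.82 ± 0.18 on the log2 scale (estimate ± standard error; adjusted p = 0.0090). The change was −3.11 in I90-10 and −2.53 in I90-79. Among all 15398 genes tested, 31 were called (0.201%), 10 up (0.0649%) and 21 down (0.136%). The threshold was close for ATPAF1: without HMGB1 knockdown replicate 1 its log2-fold change was −2.67 with an adjusted p of 0.049, and without HMGB1 knockdown replicate 2 it was −3.01 with an adjusted p of 0.033. With the isolate as a replicate block, the adjusted p was 3.7e-05.

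**Figure D1:**
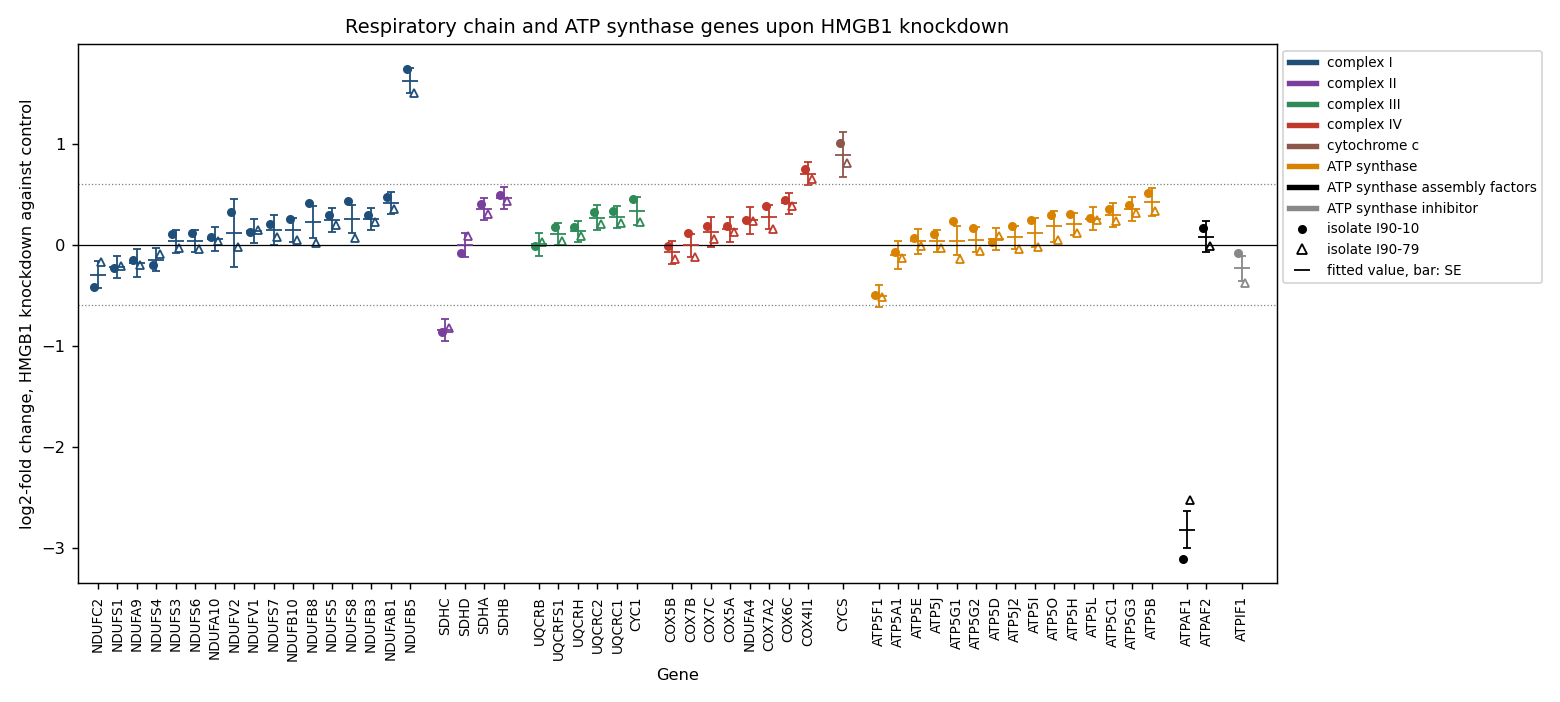
The log2-fold change (y axis) of each of the 54 genes (x axis), grouped by complex. Circles are isolate I90-10, open triangles isolate I90-79, horizontal ticks the fitted value with a bar of 1 standard error, and dotted lines mark log2-fold changes of −0.6 and 0.6. ATPAF1 stands at −2.82, SDHC at −0.85, NDUFB5 at 1.62, and 49 of the 54 genes lie between the dotted lines.

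With the isolate as a replicate block, a fit that takes the difference between the isolates out of the error, 5 of the 54 genes passed the threshold. NDUFB5, COX4I1 and CYCS were up and ATPAF1 and SDHC were down. The 3 genes up are 5.56% of the list, against 6.68% of all genes tested, and the 2 genes down are 3.70%, against 7.84%. RUVs followed by DESeq2 is the procedure of the study, which does not give the number of factors. Rebuilt here with 1 factor and all genes as controls, it gave 3 up and 2 down as well, against 4.96% and 5.4% of all genes. At an unadjusted p under 0.05 in the fit without the block, 9 of the 54 genes were up (16.7%, against 13.6%) and 3 were down (5.56%, against 14.7%).

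Below the threshold, small positive values prevailed. A log2-fold change above 0 was found for 43 of the 54 genes (79.6%, against 49.6% of all genes tested), and the median was 0.13, against −0.01 over all genes. By complex the medians were 0.14 for complex I, 0.18 for complex II, 0.20 for complex III, 0.20 for complex IV and 0.07 for the ATP synthase. The median of the 54 genes was 0.20 in I90-10 and 0.06 in I90-79. Both isolates gave a higher value upon knockdown for 31 genes (57.4%, against 38.9% of all genes), both a lower value for 10 genes (18.5%, against 39.4%), and 13 genes went opposite ways. The knockdown libraries lay above both control libraries for 26 genes (48.1%, against 29.8%) and below both for 9 genes (16.7%, against 30.2%). Without HMGB1 knockdown replicate 1, 31 genes were above 0 and the median was 0.07.

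The 95% interval of the log2-fold change stayed above −1 for 49 of the 50 subunits, the exception being SDHC, whose interval ran from −1.13 to −0.57. For 37 of the 54 genes the whole interval lay between −0.6 and 0.6.

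Within the ATP synthase, no subunit passed the threshold with or without the replicate block, and 2 were up and 1 was down at an unadjusted p under 0.05. ATP5B, which encodes the beta subunit that ATPAF1 binds, had 748 and 821 CPM in control and 1068 and 1033 CPM in knockdown libraries. These values did not overlap, but the log2-fold change of 0.42 (standard error 0.14) had an adjusted p of 0.13, and of 0.014 with the replicate block. ATP5A1, the alpha subunit, had 603 and 559 CPM against 575 and 510 CPM, with overlapping groups.

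ATP5F1, subunit b of the stalk that holds the F1 head in place, had the smallest p of the complex. It was counted at 209 and 204 CPM in control and at 148 and 142 CPM in knockdown libraries, the latter being lower in both isolates. The difference of −0.51 ± 0.11 (log2, estimate ± standard error) had an adjusted p of 0.053 without and 0.0041 with the replicate block, and remained short of the threshold of −0.6. ATP5F1 was also the only subunit of the ATP synthase with both knockdown libraries below both controls, while 6 of the 15 had both above. Over all genes tested these shares were 30.2% and 29.8%.

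The ring of c subunits is encoded by 3 genes, ATP5G1, ATP5G2 and ATP5G3, whose proteins differ in the import sequence that is cut off and not in the mature subunit. ATP5G3 had 204 and 202 CPM in control and 268 and 250 CPM in knockdown libraries, a log2-fold change of 0.35 (adjusted p = 0.12). ATP5G1 (42.5 and 52.2 against 49.96 and 47.4 CPM) and ATP5G2 (169 and 176 against 190 and 168 CPM) overlapped between the groups. Their log2-fold changes of 0.04 (95% interval −0.32 to 0.40) and 0.05 (−0.25 to 0.36) went opposite ways in the isolates.

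The partner chaperone ATPAF2 had 17.3 and 16.5 CPM in control and 19.4 and 16.3 CPM in knockdown libraries. The groups overlapped, and the log2-fold change was 0.08 (95% interval −0.32 to 0.48, adjusted p = 0.78). ATPIF1, which blocks the reverse, ATP-consuming reaction of the enzyme, had 46.2 and 51.2 CPM in control and 43.6 and 39.2 CPM in knockdown libraries, with a log2-fold change of −0.23 (adjusted p = 0.28).

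Per length of transcript, ATPAF1 and ATPAF2 exchanged their order. In TPM (counts scaled by gene length and then to a common total), ATPAF1 was at 40.0 ± 3.86 (SD, n = 2) in control libraries and ATPAF2 at 12.8 ± 0.168 (SD, n = 2). In knockdown libraries ATPAF1 was at 5.36 ± 1.05 (SD, n = 2) and ATPAF2 at 12.8 ± 1.24 (SD, n = 2). The subunits of the ATP synthase lay higher, from 76.6 TPM for ATP5G1 to 1462 TPM for ATP5B in control libraries. Over the 54 genes the median control level was 137 TPM, from 4.53 ± 1.67 (SD, n = 2) for NDUFV2 to 1616 ± 9.82 (SD, n = 2) for NDUFS5. In knockdown libraries NDUFS5 was at 1811 ± 65.1 TPM (SD, n = 2) and ATP5B at 1854 ± 7.61 TPM (SD, n = 2).

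**Figure D2:**
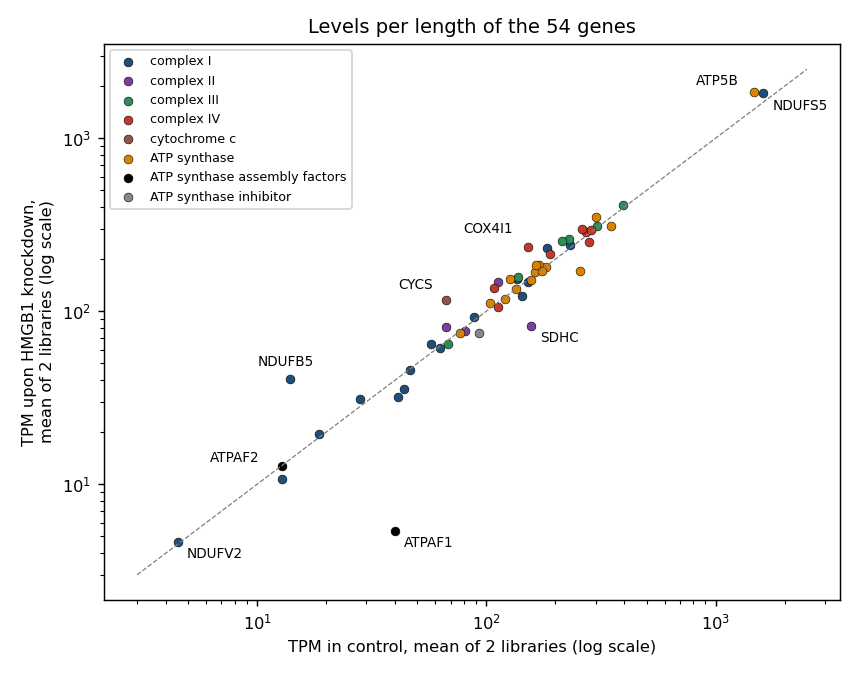
The level per length of each of the 54 genes in control (x axis) and upon HMGB1 knockdown (y axis), in TPM on log scales, as the mean of 2 libraries and coloured by complex. The dashed line marks equal levels, and ATPAF1 lies below it at 40.0 and 5.36 TPM while NDUFB5 lies above it.

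In complex I, which oxidizes NADH, NDUFB5 stood apart from the other 16 subunits. NDUFB5, an accessory subunit of the membrane arm, had 18.7 and 20.1 CPM in control and 62.5 and 57.03 CPM in knockdown libraries, and the groups were well separated. The 3.08-fold higher mean gave a log2-fold change of 1.62 (standard error 0.12), and the adjusted p of 0.0104 missed the threshold by little, against 6.6e-05 with the replicate block. Another annotated gene on the same strand overlaps 35.2% of the exonic bases of NDUFB5. That gene has 0 counts in all libraries, but how reads on shared bases were assigned is not given. The 0 therefore does not tell whether that gene is expressed. The next smallest p values belonged to NDUFAB1, the mitochondrial acyl carrier protein (66.6 and 72.6 against 92.4 and 92.6 CPM, log2-fold change 0.41, adjusted p = 0.082), and to NDUFB3, a small subunit of the membrane arm (35.2 and 35.9 against 43.1 and 42.0 CPM, log2-fold change 0.26, adjusted p = 0.20).

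The other complex I subunits had log2-fold changes from −0.30 to 0.25. Of the 17, 4 had both knockdown libraries below both controls and 8 had both above, against 30.2% and 29.8% of all genes. NDUFS5, a subunit facing the intermembrane space and the gene with the highest level per length in control libraries, had 212 and 208 CPM in control and 259 and 237 CPM in knockdown libraries (log2-fold change 0.24, adjusted p = 0.25). NDUFV2, an iron-sulfur subunit of the NADH-binding module, was counted at 2.18 and 3.61 CPM in control and at 2.74 and 3.55 CPM in knockdown libraries. Another gene overlaps 28.4% of its exonic bases, and its pseudogene NDUFV2P1 had 33 and 90 counts in control and 56 and 45 in knockdown libraries, against 64, 133, 79 and 111 for NDUFV2 in the same order. The part of either in the low value of NDUFV2 was not tested.

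Complex II, succinate dehydrogenase, is the 1 complex with no mitochondria-encoded subunit, and its 4 genes did not go the same way. SDHC, a membrane anchor that holds the heme and quinone site, had 77.0 and 72.1 CPM in control and 42.2 and 40.7 CPM in knockdown libraries. Both isolates were lower, by −0.87 and −0.82 on the log2 scale. The fitted log2-fold change was −0.85 (standard error 0.11), a 1.80-fold lower level, with an adjusted p of 0.020, and of 0.00055 with the replicate block, which called it down.

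The other anchor, SDHD, had 40.7 and 40.3 CPM in control against 38.4 and 42.6 CPM upon knockdown. The groups overlapped, and the 95% interval of the log2-fold change was −0.30 to 0.30. SDHB, the iron-sulfur subunit, had 62.7 and 68.3 against 88.3 and 91.96 CPM (log2-fold change 0.46, adjusted p = 0.067, 0.0079 with the block). SDHA, the flavoprotein that oxidizes succinate, had 127 and 136 against 169 and 169 CPM (log2-fold change 0.36, adjusted p = 0.11). Both were higher in each isolate, opposite in sign to SDHC. SDHA shares 24.4% of its 50-base pieces with transcripts of other genes.

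In complex III, which hands electrons from ubiquinol to cytochrome c, all 6 log2-fold changes were above 0 (0.01 to 0.33), and none passed the threshold or had an unadjusted p under 0.05. UQCRC1, a core protein, had 172 and 179 CPM in control and 216 and 208 CPM in knockdown libraries (log2-fold change 0.27, adjusted p = 0.19). The core protein UQCRC2 had 167 and 160 against 208 and 185 CPM (0.27, adjusted p = 0.22). CYC1, cytochrome c1, had 90.4 and 110 against 124 and 129 CPM (0.33, adjusted p = 0.19). In these 3 genes the groups did not overlap.

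In complex IV, cytochrome c oxidase, COX4I1 had the largest difference. This subunit, to which ATP binds to regulate the enzyme, had 172 and 172 CPM in control and 290 and 271 CPM in knockdown libraries, 1.63-fold higher with well separated groups. The log2-fold change of 0.70 (standard error 0.12) had an adjusted p of 0.030, and of 0.0011 with the replicate block, which called it up. COX6C (75.8 and 81.5 against 103 and 106 CPM, log2-fold change 0.41, adjusted p = 0.080) and COX7A2 (113 and 124 against 148 and 138 CPM, log2-fold change 0.27, adjusted p = 0.20) are small accessory subunits of the same complex. The other 5 subunits lay between −0.08 and 0.24.

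CYCS, the carrier between complexes III and IV that also triggers the apoptosome when released, differed between the isolates as well as between the groups. It had 56.9 CPM in I90-10 and 82.99 CPM in I90-79 in control, and 114 and 145 CPM in knockdown libraries. Each isolate was higher upon knockdown, by 1.004 and 0.81 on the log2 scale. Without the block the log2-fold change of 0.89 had a standard error of 0.22 and an adjusted p of 0.073, and with it these were 0.10 and 0.00045.

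**Figure D3:**
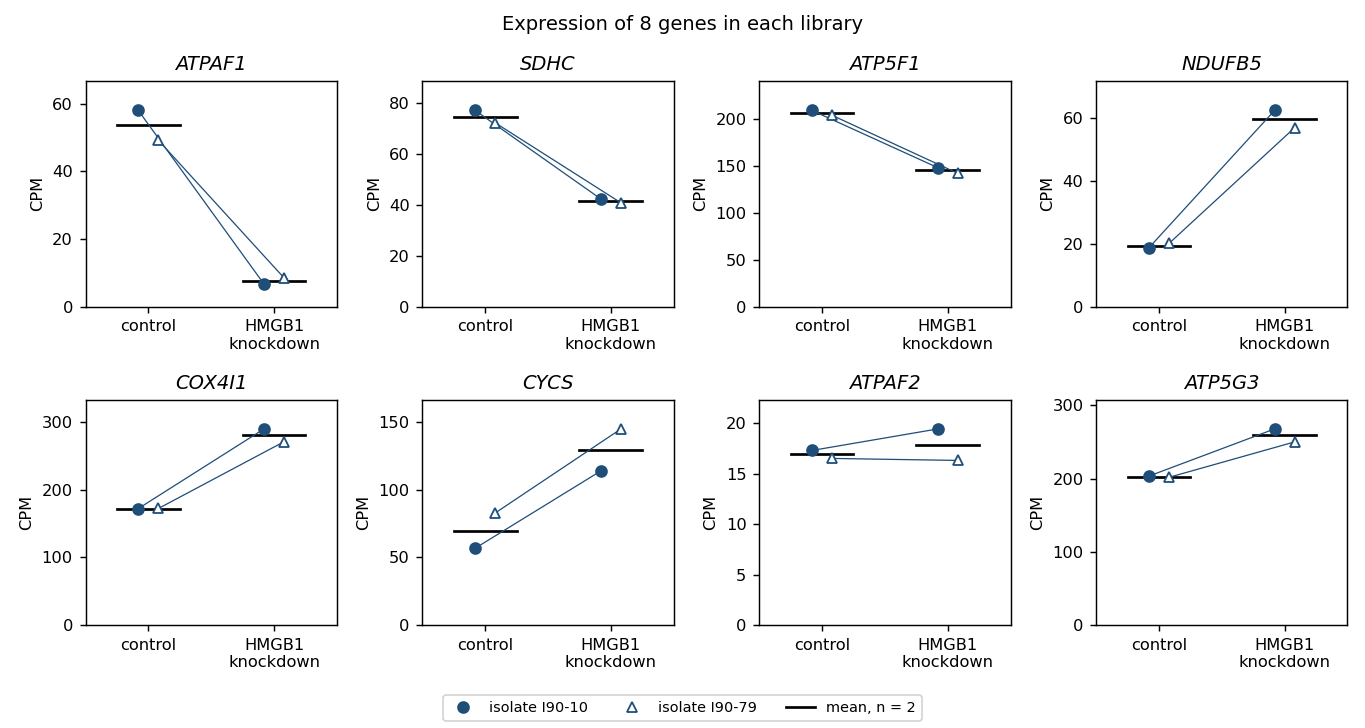
Expression (y axis, CPM from 0) of 8 genes in each control and knockdown library, with lines joining the libraries of 1 isolate and bars marking the mean of 2 libraries. ATPAF1, SDHC and ATP5F1 were lower in both isolates and NDUFB5, COX4I1, CYCS and ATP5G3 were higher, while ATPAF2 overlapped between the groups.

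Across all genes, lower values upon knockdown went with a word of 6 bases in the 3′ UTR, GCAGTT. This was known from earlier results on these counts, so its count among the 54 genes is a description. Over 12336 tested genes with a canonical 3′ UTR of at least 100 bases, the median log2-fold change was 0.07 with 0 copies, −0.10 with 1, −0.22 with 2, −0.31 with 3 and −0.33 with 4 or more. The median length of the 3′ UTR went up with the copies, from 886 to 6828 bases. Of the 44 oxidative phosphorylation genes with such a 3′ UTR, 12 (27.3%) hold the word, against 36.2% of all these genes. Their median was −0.05, against 0.13 for the 32 without it.

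ATPAF1 has 4 copies, the most in the list, ATP5F1 has 3, NDUFS1 has 2 and SDHC has 1. The 2 genes called down with the replicate block, ATPAF1 and SDHC, hold the word, as does 1 of the 3 called up, CYCS. The word came from earlier results on these same counts, so its presence in genes that fell is a description. The 4 copies of ATPAF1, the 3 of ATP5F1 and the 1 of SDHC are shown because these are the genes with the lowest values, and that of CYCS because it went the other way. Each line gives the 22 bases around the word on the strand of the gene, with the word in capitals, in the 3′ UTR of the GENCODE canonical transcript on GRCh37.
ATPAF1, chr1:47101337-47101358, minus strand: tataatgaGCAGTTggtaatga
ATPAF1, chr1:47101129-47101150, minus strand: gtaacagcGCAGTTgcattctg
ATPAF1, chr1:47099888-47099909, minus strand: cagtattcGCAGTTtgtgtgtg
ATPAF1, chr1:47099639-47099660, minus strand: tggtcctgGCAGTTtatctttt
ATP5F1, chr1:112003838-112003859, plus strand: ctgaataaGCAGTTtgccttta
ATP5F1, chr1:112004936-112004957, plus strand: gacgttatGCAGTTttacagga
ATP5F1, chr1:112005348-112005369, plus strand: ttggatcaGCAGTTatttcaaa
SDHC, chr1:161332476-161332497, plus strand: gcctagaaGCAGTTattctctc
CYCS, chr7:25159591-25159612, minus strand: gtaagttgGCAGTTttagatag

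The copy of CYCS lies outside the gene as the count files annotate it, whose 3′ end is at 25159710. NDUFS1, the largest iron-sulfur subunit of complex I, had 124 and 128 CPM in control and 106 and 111 CPM in knockdown libraries (log2-fold change −0.22, adjusted p = 0.24). The other 7 of the 12 have 1 copy each and log2-fold changes from −0.18 (NDUFA9) to 0.41 (COX6C). The copies of NDUFA9 and of ATP5A1 (log2-fold change −0.10) also lie outside the gene as counted. Both of these values were below 0, with adjusted p of 0.45 and 0.68 in the fit without the block. The bases beside the word differ from copy to copy, and the part of the word in the fall of ATPAF1 was not tested.

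**Figure D4:**
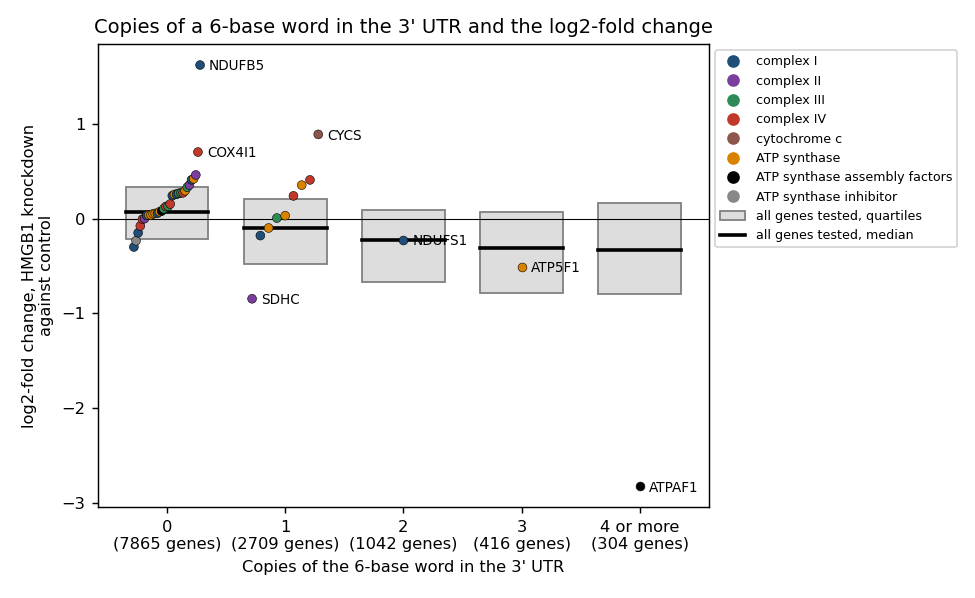
Log2-fold change (y axis) by the number of copies of the 6-base word in the 3′ UTR (x axis). Grey boxes span the quartiles of all genes tested, with a black line at the median, and points are the 44 oxidative phosphorylation genes with a 3′ UTR of at least 100 bases. The medians of all genes run from 0.07 to −0.33, and ATPAF1, with 4 copies, lies at −2.82, below its box.

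The remaining genes of the pathway were taken from a list of 98 symbols, of which 97 were found and 92 were expressed enough to be tested. In the fit without the block, 1 of them passed the threshold (1 of 92, against 0.201% of all genes). It was NDUFA8, an accessory subunit of complex I on its intermembrane side. It spans 124894745 to 124922098 of chromosome 9, minus strand. It had 45.4 and 46.4 CPM in control and 9.04 and 6.88 CPM in knockdown libraries, a 5.77-fold decrease to levels far below both controls. On the log2 scale this was −2.53 ± 0.18 (estimate ± standard error; adjusted p = 0.0099), with −2.32 in I90-10 and −2.74 in I90-79. The call was lost when either knockdown library was left out and when at least 10 counts were required in every library. The 3′ UTR of NDUFA8, of 183 bases, holds the word above once, shown because the gene fell:
NDUFA8, chr9:124906370-124906391, minus strand: gtgacttgGCAGTTattctata

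The other 19 complex I subunits of the list had log2-fold changes from −0.95 (NDUFA7) to 0.49 (NDUFA13), and none was called in either fit. With the replicate block 9 of the 92 pathway genes were up (9.78%, against 6.68% of all genes tested) and 4 were down (4.35%, against 7.84%), and with RUVs and DESeq2 the counts were 5 and 3, against 4.96% and 5.4% of all genes. Without the block, 19 were up (20.7%, against 13.6% of all genes) and 5 were down (5.43%, against 14.7%) at an unadjusted p under 0.05. The word was held by 3 of the 4 genes called down with the block (NDUFA8, POLG and COA3) and by 4 of the 9 called up (LYRM7, SCO1, GABPA and PPARGC1A). It is held by 36.2% of all tested genes and 30.9% of the pathway genes with a 3′ UTR of at least 100 bases. Its share among all called genes was not computed, so these counts are a description. In LYRM7, GABPA and PPARGC1A the 1 copy of the word lay inside the gene as counted. Over the 81 pathway genes with a 3′ UTR of at least 100 bases, the median log2-fold change was 0.06 for the 25 with the word and 0.16 for the 56 without it. The median of the 92 was 0.14, and 59 lay above 0 (64.1%, against 49.6%).

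Among subunits of complexes III and IV, COX6B1, a complex IV subunit facing the intermembrane space, had 68.8 and 74.1 CPM in control and 126 and 110 CPM in knockdown libraries (log2-fold change 0.73, adjusted p = 0.033, 0.0018 with the block). Among the assembly factors, the genes called up with the block were LYRM7, which escorts the Rieske protein into complex III, ECSIT of complex I, and SCO1, COX17 and COA6, which deliver copper to complex IV. LYRM7 had 7.12 and 8.44 CPM in control and 19.5 and 21.0 CPM in knockdown libraries (log2-fold change 1.38, adjusted p = 0.017). SCO1 had 17.6 and 19.5 against 36.9 and 40.5 CPM (1.06, adjusted p = 0.018), with higher values in both isolates. The word occurs 4 times in the 3′ UTR of its canonical transcript, all of them outside the gene as counted.

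ECSIT had 24.9 and 25.1 against 39.4 and 41.6 CPM (log2-fold change 0.69, adjusted p = 0.032), and COX17 had 16.3 and 18.5 against 25.9 and 29.2 CPM (0.67, adjusted p = 0.055). COA6 had 27.5 and 35.7 against 42.7 and 66.7 CPM (0.79, adjusted p = 0.12), with the higher value of each group in I90-79. COA3, which acts with newly made COX1 in complex IV assembly, was called down with the block. It had 32.2 and 32.9 against 21.7 and 19.4 CPM (log2-fold change −0.67, adjusted p = 0.043), and 42.5% of its exonic bases overlap another gene. TMEM70, an assembly factor of the ATP synthase c ring, had 22.5 and 24.6 against 30.99 and 35.8 CPM (0.51, adjusted p = 0.087), and was not called in either fit.

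Of 14 regulators of respiratory genes and mitochondrial DNA, none was called without the block (4 up and 2 down at an unadjusted p under 0.05, against 13.6% and 14.7% of all genes), and with it 3 were up and 2 were down, against 6.68% and 7.84%. PPARGC1A, the coactivator PGC-1α, had 0.817 and 1.79 CPM in control and 4.501 and 4.71 CPM in knockdown libraries, a low level in both groups (log2-fold change 1.80, standard error 0.41, adjusted p = 0.058, 0.0029 with the block). Without control replicate 2 the log2-fold change was 2.49, and without control replicate 1 it was 1.36. TFAM, which packages and transcribes mitochondrial DNA, had 28.7 and 38.9 against 46.5 and 64.3 CPM (0.71, adjusted p = 0.11). It was higher upon knockdown in both isolates, and higher in I90-79 than in I90-10 in both groups.

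The subunits of the transcription factor GABP, also called nuclear respiratory factor 2, went opposite ways. GABPA, which binds DNA, had 17.2 and 22.2 CPM in control and 32.1 and 39.1 CPM in knockdown libraries (log2-fold change 0.85, adjusted p = 0.054, 0.00082 with the block). GABPB1, which carries the activating domain, had 39.6 and 40.2 against 22.99 and 26.5 CPM (−0.69, adjusted p = 0.041, 0.0023 with the block). POLG, the polymerase that copies mitochondrial DNA, had 52.7 and 54 against 32.8 and 31.2 CPM (−0.74, adjusted p = 0.026, 0.0012 with the block). In each of these 3 genes the groups did not overlap.

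**Figure D5:**
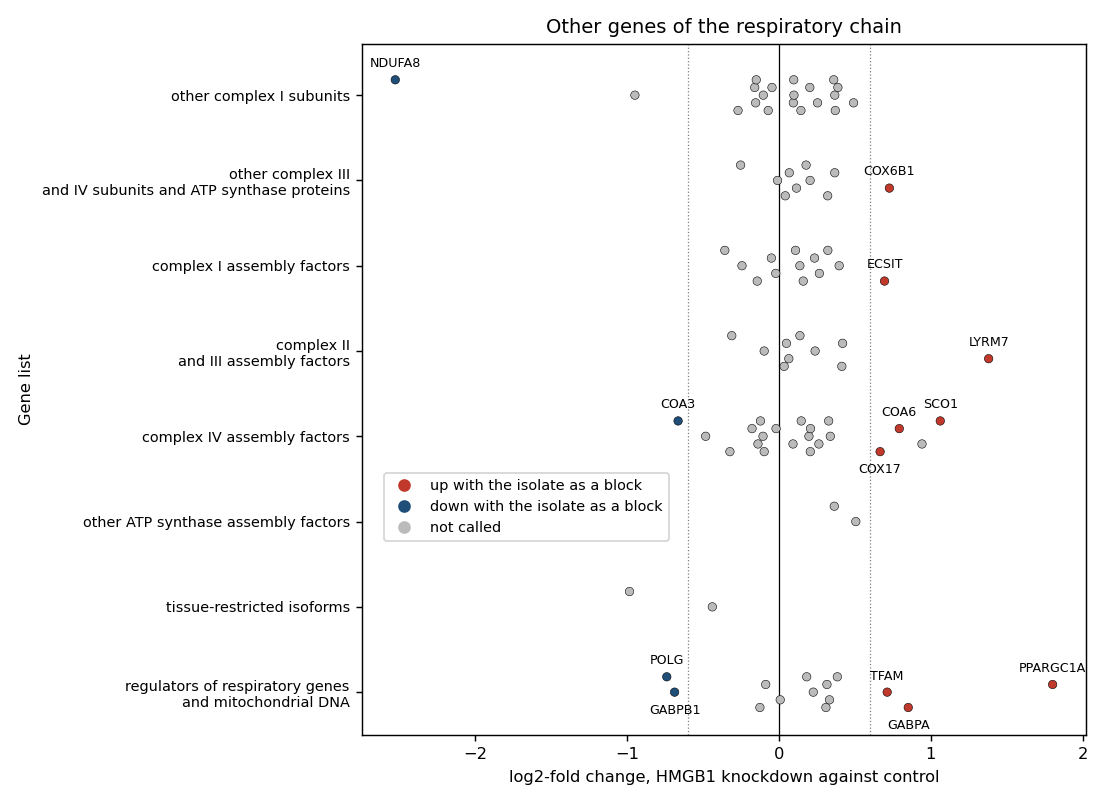
Log2-fold change (x axis) of 92 other genes of the respiratory chain by list (y axis, spread within a list only to separate the points). Red and blue points were called up and down with the isolate as a block, grey points were not called, and dotted lines mark −0.6 and 0.6. NDUFA8 lies at −2.53, far from the other complex I subunits, and PPARGC1A at 1.80.

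Of the 7 isoforms made mainly in heart, muscle, testis or a few other tissues, 5 were too low to be tested, with COX4I2, COX6A2 and COX7B2 at 0 counts in all libraries. NDUFA4L2 had 2.66 and 1.63 CPM in control and 1.45 and 0.704 CPM in knockdown libraries (log2-fold change −0.99, adjusted p = 0.24).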

How the data were processed

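RNA-seq libraries of IMR90 (2 control, 2 HMGB1 knockdown) were analysed. The authors aligned the reads to hg19 by STAR (default settings) and deposited featureCounts counts of unique reads per gene, 1 file per library, without normalization. Tool versions and the strand setting are not given in the sources used here. Counts were tested with edgeR 4.0.16 in R 4.3.3 (filterByExpr, 15398 genes; TMM; quasi-likelihood test; Benjamini-Hochberg). Genes with an adjusted p under 0.01 and a log2-fold change beyond 0.6 in either direction were called, as in the study. CPM values are TMM-scaled, and log2-fold changes per isolate use a prior count of 2. With 2 libraries against 2, an exact two-sided permutation test cannot go below 0.333, so every p comes from the model across genes. Without the block, edgeR's p rests on the spread between 2 isolates of 1 line. With the block, it rests on what is left after the difference between the isolates is taken out.

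Both groups hold the same isolates, so the replicate numbers pair the libraries. The isolates' difference in control and that in knockdown libraries had a correlation of 0.464 across genes. Alternatives were that block, DESeq2 1.42.0, RUVs with 1 factor and DESeq2, DESeq2's size factors, other filters and thresholds, and leaving out each library. The 54 genes, the lists and the word were chosen with earlier results of these data known. Genes are named by rule: HMGB1, ATPAF1, ATPAF2, ATPIF1, CYCS, the ATP5G genes, called genes, the 3 smallest p of each complex, the highest and lowest level, and the smallest p of each pathway list. ATP5A1, SDHD, NDUFS1, NDUFA9, NDUFA7, NDUFA13 and the isoforms at 0 were added after their values were seen. Overlaps and 3′ UTRs come from GENCODE v44 lifted to GRCh37. Protein sequences were not used here.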

Additional observations from a re-analysis of the deposited data

How the results depend on the processing

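ATPAF1 kept its sign under every alternative, with −3.01 to −2.67 when 1 library was left out, and was called in all fits except the 2 without a knockdown library. Of the 54 genes, those called up numbered 0, and 3 with the replicate block, without a filter, with DESeq2 and with RUVs, 2 at an adjusted p below 0.05, and 0 to 1 without 1 library. Those called down numbered 1, and 2 with the replicate block, without a filter, with DESeq2, with RUVs and at an adjusted p below 0.05, and 0 to 1 without 1 library. Of the other respiratory chain genes, 0 were up, against 9 with the block, 9 without a filter, 7 with DESeq2, 5 with RUVs, 4 at an adjusted p below 0.05 and 0 to 2 without 1 library. There, 1 was down, against 4 with the block, without a filter, with DESeq2 and at an adjusted p below 0.05, 3 with RUVs, 0 with at least 10 counts in every library, and 0 to 1 without 1 library. Over all genes, 10 and 21 were called, but 1028 and 1207 with the block, 1118 and 1275 without a filter, 725 and 817 with DESeq2, and 764 and 831 with RUVs. These counts fell when either knockdown library was left out of edgeR and went up when either control library was left out. Such a fit leaves 1 library in a group. The cause of these shifts was not tested. The median of the 54 genes stayed above 0 in all alternatives (0.07 to 0.19). With RUVs, ATP5G1 was at −0.018 and NDUFV2 at −0.14. Leaving out 1 library gave −0.10 to 0.20 for ATP5G1, −0.041 to 0.14 for ATP5G2, −0.054 to 0.21 for ATPAF2 and −0.20 to 0.53 for NDUFV2, so these genes have no settled sign. No other gene chosen by the rule changed sign. With 2 libraries in each group, an outlying library cannot be told from the spread.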

Other observations

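For 38 of the 54 genes the files hold 178 rows of pseudogenes named after them, of which 127 had 0 counts in all libraries and 6 were expressed enough to be tested. Their counts summed to 3117 over the 4 libraries, and the most, 1283, fell on SDHAP4, a copy of SDHA, with 303 and 377 counts in control and 261 and 342 in knockdown libraries.

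RefSeq promoter windows (250 bases before to 50 after the start, GRCh38.p14) were given for 42 of the 54 genes, in 52 windows. The ETS word CCGGAAG, of the kind that GABP binds, was found on either strand in 13 of them (25%) and in 10.3% of 35116 windows of all genes. A word for the factor NRF1 was found in only 2 of the 52 (3.85%), and in 1.24% of the windows of all genes. Windows of the same gene can overlap and share a match. The words found are matches of letters and no evidence of binding.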
